A study of Mus musculus with 7 samples.

Results

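The regions described here are the 234 of 5898 deposited accessible chromatin regions whose nearest annotated gene, in the authors' assignment, is a microRNA gene. They were chosen by gene symbol (names beginning with Mir and a digit, or with Mirlet7) on chromosomes 1 to 19, and they are assigned to 145 microRNA genes. The assay was ATAC-seq, which tags open DNA with the transposase Tn5, on nuclei of macrophages that had been isolated by FACS from adipose tissue. All animals were male adult C57Bl/6J. The HFD-RD group (2 libraries) received 11 weeks of a high-fat diet, 60% lipid, followed by 9 weeks of a regular diet, 10% lipid, to induce weight loss. The HFD group (3 libraries) received the same 11 weeks of high-fat diet and nothing after it. The RD-RD group (2 libraries) received 20 weeks of the regular diet. Time on study therefore differs between HFD and the other groups together with the diet, and the effects of time and diet cannot be told apart. Titles and diet labels were followed for the grouping, although in all 7 libraries the source name gives a diet that differs from the title. Nothing in the labels says that libraries came from separate animals, so the p-values measure only the spread between these libraries, which may be technical.

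MicroRNAs are short RNAs cut from a hairpin that forms in a longer primary transcript. Loaded into an Argonaute protein, a microRNA pairs through its seed, bases 2 to 8 from its 5′ end, with messenger RNAs and lowers their translation or stability, so microRNAs with the same seed share most of their predicted targets. Many microRNA genes lie in introns of protein-coding genes and share the promoter of the host. In macrophages, miR-21a, miR-146a and miR-155 are best known as microRNAs induced by Toll-like receptor signalling, and miR-511 as the intronic partner of the mannose receptor gene Mrc1. An accessible region near such a gene is open chromatin that may belong to the microRNA, to its host or to another gene, and accessibility does not measure the microRNA itself.

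Mature sequences follow for the loci on which the results turn, from RefSeq (GRCm38.p6), 5′ to 3′, with the seed in capitals. Of the 145 genes, 122 had a mature sequence there. The first group stands for loci whose regions were more accessible after the high-fat diet, the second for loci whose regions were less accessible. Members of the pairs miR-21a-5p and miR-21c, let-7c-5p and let-7i-5p, and miR-204-5p and miR-211-5p carry the same seed.
miR-21a-5p: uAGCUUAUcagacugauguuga
miR-21c: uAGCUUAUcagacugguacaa
miR-342-3p: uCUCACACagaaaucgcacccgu
miR-34a-5p: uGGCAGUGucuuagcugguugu
miR-26a-5p: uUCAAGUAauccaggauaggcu
miR-181b-5p: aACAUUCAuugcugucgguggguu
miR-29b-3p: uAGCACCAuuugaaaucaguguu
miR-100-5p: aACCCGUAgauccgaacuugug
let-7c-5p: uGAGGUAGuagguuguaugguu
The loci with less accessible regions follow.
miR-30a-5p: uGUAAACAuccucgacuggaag
miR-146a-5p: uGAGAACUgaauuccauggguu
miR-511-3p: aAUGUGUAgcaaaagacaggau
miR-204-5p: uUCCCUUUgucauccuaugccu
miR-211-5p: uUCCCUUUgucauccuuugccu
let-7i-5p: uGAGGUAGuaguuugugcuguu
miR-6414: cUAAGUUCugagcugagucuug

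Only 5 of the 234 regions touch the annotated microRNA gene to which they are assigned. In 4 of them the whole hairpin lies inside the accessible region, and these hairpins are printed because they are microRNA sequence that was itself in open chromatin. Capitals mark the mature microRNAs within each hairpin (RefSeq, GRCm38.p6, each read on the strand of its gene).
Mir29b-2: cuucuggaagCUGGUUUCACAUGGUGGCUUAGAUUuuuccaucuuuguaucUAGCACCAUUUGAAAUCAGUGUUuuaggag
Mir3095: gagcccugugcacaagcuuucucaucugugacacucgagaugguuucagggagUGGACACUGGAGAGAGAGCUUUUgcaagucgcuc
Mir6932: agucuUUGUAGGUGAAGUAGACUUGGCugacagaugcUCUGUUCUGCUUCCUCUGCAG
Mir6977: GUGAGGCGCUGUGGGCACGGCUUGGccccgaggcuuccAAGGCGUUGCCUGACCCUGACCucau

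The remaining regions lie at a distance. Distances are the authors' and run from the lower coordinate of a region to the start of the microRNA gene, negative where the region is upstream. The median absolute distance was 35654.5 bp, against 28030.5 bp over all deposited regions and their genes. Of the 234 regions 121 lay upstream and 108 downstream of the microRNA gene. By RefSeq, 137 regions lay over the body of a protein-coding gene, 113 of them over the gene that also holds the microRNA, and 104 of the 145 microRNA genes lie within a protein-coding gene. An assignment to a microRNA can therefore stand for a region of its host. Of the 5 deposited regions over Mrc1, for example, 3 are assigned to Mir511 and 0 to Mrc1, and all 4 regions over Evl are assigned to Mir342. Regions were 718 bp wide in the median, against 730 bp over all. Chromosome 18 held 21 of the regions (8.97%), against 3.76% of all deposited regions, and 7 of these 21 are assigned to Mir122. Coordinates follow GRCm38 and count from 1.

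The deposited value of a region in a library is its read count divided by that library's size factor, called a normalized count below. The median region nearest a microRNA gene held 71 and 125.5 reads in the HFD-RD libraries, 275.5, 136.5 and 148.5 reads in the HFD libraries and 79 and 72.5 reads in the RD-RD libraries. The shallowest value rested on 7 reads, so low regions of HFD-RD and RD-RD carry the most counting error. Log2 changes come from limma on log2(normalized count + 1) with their SE, and a region is called higher or lower where the Benjamini–Hochberg adjusted p over all 5898 regions is 0.05 or less. The authors deposited only regions that differed between groups in these same libraries, so the tests below are not independent of that selection. In bulk libraries, a change in the share of cells with an open region and a change in accessibility per cell cannot be told apart. Of 12 macrophage marker genes only Zeb2 had a deposited region assigned to it. Another of them, Mrc1, had 5 regions over its body, of which 0 are assigned to Mrc1. The deposited regions are those that differed between groups, so they cannot check the cell type.

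HFD-RD was compared with RD-RD to ask what differs after weight loss from mice kept on the regular diet. Most regions near microRNA genes were more accessible after weight loss, among them those at Mir21a, Mir21c, Mir23b, Mir342 and Mir34a, and about 1 region was less accessible for every 2 that were more accessible, among them those at Mir30a, Mir511, Mir146 and Mir204. Of the 234 regions limma called 154 higher in HFD-RD (65.8%) and 75 lower (32.1%), and 5 did not pass, those of Mir101c (2), Mir7048, Mir7661 and Mir6360 (1 each). Over all deposited regions 64.8% were higher and 32.4% lower, so the shares near microRNA genes are close to the background and are not a result about microRNA genes as a class. The median log2 change was 1.02 near microRNA genes and 1.03 over all regions, with a range near microRNA genes of -3.41 to 2.40 and a median SE of 0.233. Without each of the 7 libraries in turn, 133 of the 154 and 71 of the 75 kept their call.

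**Figure D1:**
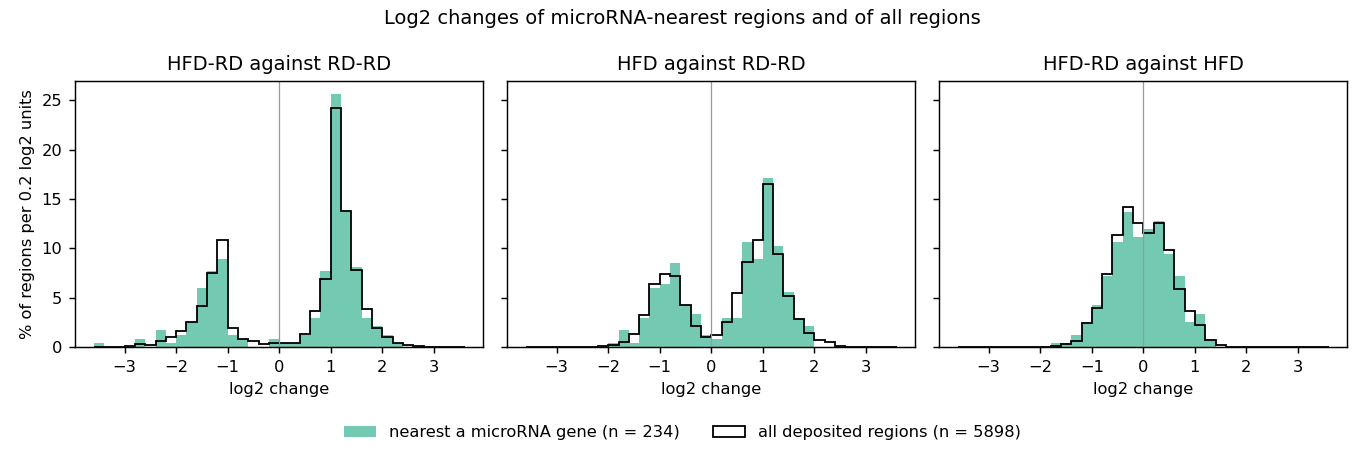
Percentage of regions per 0.2 log2 units of limma's log2 change (horizontal axis) for the 234 regions nearest a microRNA gene (filled) and all 5898 deposited regions (outline), in 3 comparisons. Both distributions have a peak on either side of 0 against RD-RD, with medians of 1.02 and 1.03 for HFD-RD and 0.74 and 0.75 for HFD, and a single centre near 0 for HFD-RD against HFD.

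Regions of the same microRNA gene mostly moved together. Of 46 genes with at least 2 regions, 25 had every region higher in HFD-RD than in RD-RD and 16 every region lower. Regions in both directions were found at 3 genes, Mir5127, Mir6419 and Mir7237, whose regions lie as far as 402504, 498509 and 122329 bp from the microRNA. The lower Mir5127 region (-0.72) lost its call without HFD-RD replicate 2 (-0.27, limma adjusted p = 0.42) and without RD-RD replicate 1 (-0.36), and missed the threshold narrowly without HFD replicate 1, 2 or 3 (adjusted p = 0.0528 to 0.0572). Regions of 1 gene are neighbours and are not independent of each other. The same count was not made for other genes with several regions. Over all 5898 regions 64.8% were higher and 32.4% lower, so the count is not read as a trait of microRNA genes.

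Mir21a lies in Vmp1, a gene of autophagosome formation, and encodes miR-21a, which macrophages make in large amounts and which is induced by inflammatory signals. It had 4 regions, 3 upstream within Vmp1 and 1 downstream over Tubd1, and all 4 rose in HFD-RD, with log2 changes of 1.09 to 1.65. The nearest, at chr11:86596160-86596752 and -12002 bp, had normalized counts of 108 and 105 in HFD-RD, 71.8, 73.2 and 63.6 in HFD and 31.1 and 47.5 in RD-RD. Its HFD-RD libraries stood above all HFD libraries and these above both RD-RD libraries. The log2 change was 1.44 ± 0.23 (SE; limma adjusted p = 0.000285) for HFD-RD and 0.83 ± 0.21 (adjusted p = 0.00355) for HFD, both against RD-RD, and without RD-RD replicate 1 the second was 0.54. The strongest signal was downstream, at chr11:86569467-86570889 and 14691 bp, with 547 and 533 in HFD-RD, 507, 368 and 549 in HFD and 198 and 197 in RD-RD. Here the HFD-RD and HFD libraries overlapped and both lay clear of RD-RD, where both libraries were nearly equal. At the most distant upstream region, at -25829 bp, the RD-RD libraries differed from each other more than at the others, at 41.1 and 102, against 184 and 229.6 in HFD-RD and 107, 123 and 113 in HFD. Without RD-RD replicate 1 its log2 change in HFD-RD was 1.00 in place of 1.65, and the call in HFD ended (0.16, limma adjusted p = 0.524, in place of 0.81).

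Mir21c is an annotated mouse microRNA gene on chromosome 8 whose product has the seed of miR-21a. Its 4 regions, 39316 to 478431 bp downstream of the gene, all rose in HFD-RD against RD-RD, by 1.09 to 1.54 on the log2 scale. The region at chr8:128202084-128203109, 76141 bp from the gene, had normalized counts of 244 and 235 in HFD-RD, 104, 105 and 104 in HFD and 94.7 and 132 in RD-RD. Both HFD-RD libraries stood above every other library, and the HFD libraries lay within the range of RD-RD. The log2 change was 1.09 ± 0.21 (SE; limma adjusted p = 0.000667) in HFD-RD and -0.10 (adjusted p = 0.625) in HFD against RD-RD, and 1.19 ± 0.20 (adjusted p = 0.00706) in HFD-RD against HFD. The last call was kept without each library in turn. At the region farthest from the gene, the change in HFD-RD was 0.62 without RD-RD replicate 1, in place of 1.16.

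Mir23b, Mir27b and Mir24-1 form a cluster within Aopep, a gene for an aminopeptidase, and Mir3074-1 lies at the Mir24-1 hairpin. Aopep had 11 deposited regions, of which 4 are assigned to Mir23b and 3 to Mir3074-1. All 7 rose in HFD-RD and in HFD against RD-RD. At chr13:63134754-63135329, -165730 bp from Mir23b, normalized counts were 131 and 121 in HFD-RD, 103, 85.6 and 129 in HFD and 33.6 and 23.0 in RD-RD. RD-RD was lowest in both libraries, and HFD-RD and HFD overlapped. With 2.14 ± 0.25 (SE; limma adjusted p = 8.7e-05) in HFD-RD and 1.87 ± 0.23 (adjusted p = 0.000146) in HFD, this region was among the 5 largest increases of both comparisons with RD-RD. The region with the most signal, at -160968 bp, had 709 and 741 in HFD-RD, 739, 524 and 916 in HFD and 224 and 176 in RD-RD. Nearest to the microRNAs was a region -8238 bp from Mir3074-1, with 93.0 and 78.7 in HFD-RD, 61.9, 55.1 and 57.6 in HFD and 31.1 and 30.2 in RD-RD, in which HFD-RD stood above HFD and HFD above RD-RD. Its log2 changes were 1.45 in HFD-RD and 0.90 in HFD against RD-RD. Calls in HFD against RD-RD at the other Mir3074-1 regions leaned on RD-RD replicate 1, without which that at -10758 bp ended (0.44, limma adjusted p = 0.157) and that at -21769 bp was 0.79 in place of 1.20.

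Mir342 lies in Evl, which encodes an actin regulator. Its 4 regions, all over Evl and upstream of the microRNA, rose in HFD-RD by 1.00 to 1.69 and in HFD by 0.70 to 1.01 on the log2 scale. The nearest, at chr12:108650478-108651742 and -8142 bp, had 585 and 606 in HFD-RD, 541, 404 and 516 in HFD and 295 and 298 in RD-RD. All HFD-RD libraries lay above all HFD libraries, and these above RD-RD. The log2 change in HFD-RD was 1.00 ± 0.21 (SE; limma adjusted p = 0.000942). The largest change was at -43883 bp, with 129 and 125 in HFD-RD, 78.1, 71.6 and 79.1 in HFD and 57.3 and 25.9 in RD-RD and a log2 change of 1.69 ± 0.30 (adjusted p = 0.000446). Here the RD-RD libraries differed more than 2-fold, and the call in HFD ended without RD-RD replicate 2 (0.41, limma adjusted p = 0.0994) and was 1.52 without RD-RD replicate 1. At -11991 bp the change without RD-RD replicate 1 was 0.93 in HFD-RD, in place of 1.48, and 0.45 in HFD (adjusted p = 0.199), in place of 1.01.

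Mir34a encodes a microRNA that p53 induces. Of its 3 regions, the downstream one at chr4:150075154-150077009 and 6700 bp had the highest normalized counts. They were 1309.5 and 1281 in HFD-RD, 1126, 1037 and 1223 in HFD and 589 and 528 in RD-RD. Every HFD-RD library was above every HFD library and every RD-RD library was below both, with log2 changes against RD-RD of 1.21 ± 0.20 (SE; limma adjusted p = 0.0003) in HFD-RD and 1.01 ± 0.18 (adjusted p = 0.000571) in HFD. At -14367 bp the order was another, with 144 and 124 in HFD-RD, 193, 165 and 178 in HFD and 93.4 and 77.8 in RD-RD. There HFD was highest, and the call in HFD-RD (0.64) ended without HFD-RD replicate 1 (0.54, limma adjusted p = 0.0594) and without RD-RD replicate 2 (0.51, adjusted p = 0.0595).

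**Figure D2:**
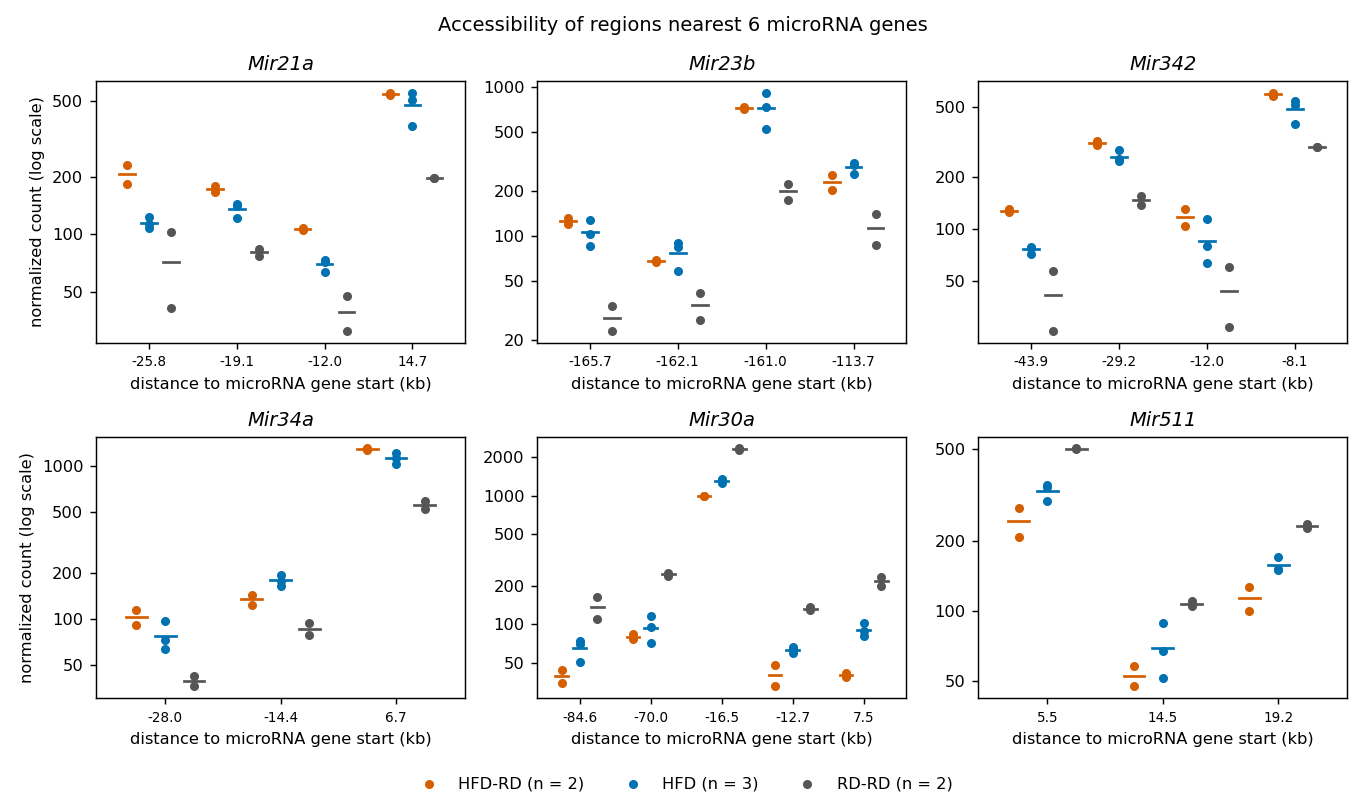
Normalized counts (log scale) at the regions of 6 microRNA genes, by the region's distance to the microRNA gene start in kb. Points are libraries of HFD-RD (n = 2), HFD (n = 3) and RD-RD (n = 2), and lines are group means. At Mir21a, Mir23b, Mir342 and Mir34a every HFD-RD library stands above every RD-RD library, and at Mir30a and Mir511 every HFD-RD library stands below.

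Of a list of microRNAs studied in macrophages or fat, 16 genes had 35 regions, of which 25 were higher and 10 lower in HFD-RD than in RD-RD (64.8% and 32.4% over all regions), with a median log2 change of 1.08, near the 1.03 over all regions. Beside Mir21a, Mir23b, Mir342 and Mir34a, increases were called at Mir26a-1, Mir181b-1, Mir193b, Mir100, Mir30d, Mir29b-2, Mir155hg and Mirlet7c-1. Mir26a-1, whose product is a tumour-suppressive microRNA, lies in Ctdspl. Its region at chr9:119028714-119029183, -3082 bp from the gene, had 113 and 74.1 in HFD-RD, 52.8, 44.4 and 37.0 in HFD and 19.9 and 20.2 in RD-RD. Each HFD-RD library was above each HFD library and each HFD library above RD-RD, and the log2 change of 2.14 ± 0.25 (SE; limma adjusted p = 8.54e-05) was among the 5 largest increases. Mir181b-1, whose product is known to dampen NF-kB signalling in endothelium, had regions 40184 and 42758 bp downstream. At the first, normalized counts were 148 and 125 in HFD-RD, 132, 142 and 136 in HFD and 44.8 and 46.1 in RD-RD, so that HFD-RD and HFD overlapped at about 3 times the RD-RD level, with log2 changes of 1.56 and 1.57. Near Mir100, which is transcribed with let-7 and miR-125 genes, the region at -51498 bp had 181 and 138 in HFD-RD, 136, 137 and 166 in HFD and 49.8 and 69.1 in RD-RD, a log2 change of 1.41 ± 0.24 (adjusted p = 0.000337) in HFD-RD. Both Mir193b regions and that of Mir30d rose as well, by 1.27, 1.00 and 1.19 on the log2 scale.

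Accessibility over the Mir29b-2 hairpin itself, printed above, was measured by the region at chr1:195036778-195037956, which begins -262 bp from the gene. miR-29b is known to repress collagen genes. Normalized counts were 124 and 105 in HFD-RD, 109.7, 72.4 and 127 in HFD and 68.5 and 41.8 in RD-RD, with HFD-RD and HFD overlapping above RD-RD. The log2 change of 1.08 ± 0.30 (SE; limma adjusted p = 0.00492) in HFD-RD was 0.73 (adjusted p = 0.0525) without RD-RD replicate 2, and that of 0.90 in HFD was 0.54 (adjusted p = 0.119). Mir155hg, the host transcript of the inflammation-induced miR-155, had a region at -22507 bp with 133 and 64.8 in HFD-RD, 73.2, 90.5 and 53.3 in HFD and 39.9 and 54.7 in RD-RD. Both HFD-RD libraries were above RD-RD, but they differed from each other about 2-fold. The log2 change of 0.98 ± 0.34 (adjusted p = 0.0163) fell short of the threshold without HFD-RD replicate 1 (0.46, adjusted p = 0.205) and without RD-RD replicate 1 (0.75, adjusted p = 0.104), and was 1.49 without HFD-RD replicate 2.

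The let-7 microRNAs are known to oppose the growth programme of Lin28. The region 6979 bp from Mirlet7c-1 had 80.2 and 42.6 in HFD-RD, 71.4, 53.5 and 85.1 in HFD and 27.4 and 37.4 in RD-RD, a log2 change of 0.85 ± 0.32 (SE; limma adjusted p = 0.0219) in HFD-RD. This call ended without HFD-RD replicate 1 (0.40, adjusted p = 0.246) and without RD-RD replicate 1 (0.63, adjusted p = 0.132), and was 1.30 without HFD-RD replicate 2. The region 99829 bp from Mirlet7i, over Ppm1h, fell, with 87.5 and 119 in HFD-RD, 187, 139.9 and 159 in HFD and 239 and 203 in RD-RD and a log2 change of -1.10 ± 0.23 (adjusted p = 0.000967). The 2 regions were not tested against each other.

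The largest group of less accessible regions at a microRNA of that list was at Mir30a, whose family is known to repress the Notch ligand gene Dll4. All 5 of its regions fell in HFD-RD and in HFD against RD-RD, with log2 changes of -1.21 to -2.39 in HFD-RD and -0.82 to -1.40 in HFD. At chr1:23279728-23280215, 7459 bp downstream, normalized counts were 41.9 and 38.9 in HFD-RD, 88.5, 81.5 and 102 in HFD and 234 and 199 in RD-RD. The groups did not overlap in any of the 3 comparisons, and HFD lay between HFD-RD and RD-RD. Log2 changes were -2.39 ± 0.21 (SE; limma adjusted p = 3.15e-05) in HFD-RD and -1.25 ± 0.19 (adjusted p = 0.000297) in HFD against RD-RD, and -1.14 ± 0.19 (adjusted p = 0.00706) in HFD-RD against HFD, and each of these calls was kept without every library in turn. The region with the highest counts of the 5 was at chr1:23255775-23257600 and -16494 bp. It had 987 and 999.8 in HFD-RD, 1260.4, 1352 and 1311 in HFD and 2332 and 2272 in RD-RD. The order of groups was the same, at a far higher level in every library. Mir30d, of the same family, had its 1 region on another chromosome and -60056 bp away, and that region rose.

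Mir511 lies in Mrc1, which encodes the mannose receptor CD206, a marker of resident and alternatively activated macrophages. The 3 regions assigned to it lie within Mrc1, 5496, 14480 and 19239 bp downstream of the microRNA, and fell in HFD-RD, with log2 changes of -1.02 to -1.05. The first, at chr2:14266499-14269668, had 209.7 and 279 in HFD-RD, 349, 299 and 344 in HFD and 503 and 499.7 in RD-RD. The groups did not overlap, and HFD was again between the others. Its log2 change was -1.05 ± 0.21 (SE; limma adjusted p = 0.000789) in HFD-RD and -0.60 ± 0.19 (adjusted p = 0.013) in HFD. In HFD the calls of the regions at 14480 and 19239 bp ended without RD-RD replicate 2 (-0.70 and -0.53, limma adjusted p = 0.0505 and 0.0559), and that at 14480 bp also without RD-RD replicate 1 (-0.63) and without HFD replicate 3 (-0.47).

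Mir146 encodes miR-146a, which NF-kB induces and which represses the signalling proteins Traf6 and Irak1. Its region at chr11:43374942-43375425 begins -481 bp from the gene and had 63.8 and 48.1 in HFD-RD, 59.2, 50.2 and 54.2 in HFD and 122 and 105 in RD-RD. HFD-RD and HFD overlapped, and both RD-RD libraries stood above them. The log2 changes against RD-RD were -1.02 ± 0.22 (SE; limma adjusted p = 0.001) in HFD-RD and -1.05 ± 0.20 (adjusted p = 0.000748) in HFD, and 0.03 ± 0.20 (adjusted p = 0.924) in HFD-RD against HFD. A p that misses the threshold does not show that the last 2 groups are alike.

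Mir204 lies in Trpm3 and Mir211 in Trpm1, genes of the same channel family, and their products share a seed. The 4 deposited regions over Trpm3 are all assigned to Mir204, 133383 to 189782 bp from it, and fell in HFD-RD, with log2 changes of -1.19 to -1.78. At chr19:22940387-22940993 normalized counts were 40.1 and 47.2 in HFD-RD, 84.0, 79.8 and 82.5 in HFD and 146 and 158 in RD-RD, with no overlap between groups and HFD in between. The log2 change was -1.78 ± 0.20 (SE; limma adjusted p = 6.63e-05). At Mir211, named after its values were seen because of the shared seed, the region at 4480 bp had 89.4 and 67.6 in HFD-RD, 103, 88.9 and 108 in HFD and 211 and 245 in RD-RD, and the log2 change was -1.53 ± 0.22 (adjusted p = 0.000177). Among the 122 genes with a mature sequence, 5 seeds were shared by 2 genes. Mir30d, of the family of Mir30a, had no sequence there and is outside this count. Both loci were higher in HFD-RD for the seeds of miR-21a with miR-21c and of miR-6932-3p with miR-7039-3p. Both were lower for miR-204 with miR-211, and the directions differed for the let-7 pair. For miR-7048-3p with miR-7077-3p, the region of Mir7077 rose and that of Mir7048 did not pass.

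The largest change of all 234 regions was at Mir6414, chr5:41890811-41891301, which begins -531 bp from the gene. Normalized counts were 12.8 and 12.0 in HFD-RD, 40.6, 32.1 and 48.1 in HFD and 153 and 131 in RD-RD. The HFD-RD values rested on 7 and 13 reads, the fewest of the 234 regions in those libraries, so the size of the change is uncertain. Both HFD-RD libraries lay below all HFD libraries and these below both RD-RD libraries, with log2 changes of -3.41 ± 0.23 (SE; limma adjusted p = 8.92e-06) in HFD-RD and -1.81 ± 0.21 (adjusted p = 0.000126) in HFD against RD-RD, and -1.61 ± 0.21 (adjusted p = 0.00371) in HFD-RD against HFD. These calls were kept without each library in turn. The next decreases in HFD-RD were at Mir684-1 (-2.63, -38453 bp), Mir133c (-2.60, -50938 bp), Mir30a and Mir5099 (-2.35, 14940 bp). Mir133c is annotated within Med27, a Mediator subunit gene, and all 3 of its regions fell in HFD-RD and in HFD. The farthest upstream, at chr2:29526232-29526869, just outside Med27, had 41.9 and 33.3 in HFD-RD, 99.4, 86.4 and 93.7 in HFD and 203 and 266 in RD-RD. Both HFD-RD libraries lay below all HFD libraries and these below RD-RD. In HFD the region at 55632 bp lost its call without RD-RD replicate 2 (-0.56, limma adjusted p = 0.0973). The deposited table with 62 regions holds only regions called by limma in all 3 comparisons, and its 4 regions near microRNA genes are those of Mir6414, Mir26a-1, Mir133c (-50938 bp) and Mir30a (7459 bp).

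The largest increases were at Mir6395 (2.40, -115647 bp), Mir1945 (2.20, -8823 bp), Mir23b, Mir26a-1 and Mir7661 (1.91, -130586 bp). The first had normalized counts of 67.5 and 76.8 in HFD-RD, 37.0, 30.4 and 65.3 in HFD and 8.72 and 18.7 in RD-RD, with HFD-RD above HFD and HFD above RD-RD, without overlap. Its RD-RD values rested on 7 and 13 reads, the fewest of all members in those libraries, so the size of this change is uncertain. Mir6395 had 6 regions in all, which rose by 1.09 to 2.40 on the log2 scale in HFD-RD. Mir7661 lies in Itpr1, a gene for a calcium release channel, which had 7 deposited regions, 6 of them assigned to Mir7661. Of these 5 rose in HFD-RD, and the sixth, at 59728 bp, did not pass (0.17). Mir6390 had 6 regions, from -127897 to 8262 bp, which rose in HFD-RD and in HFD, by 0.80 to 1.60 and 1.10 to 1.80. Mir122, known as the microRNA of hepatocytes, had 7 regions -18120 to -62030 bp upstream, 4 of them over Nedd4l, a ubiquitin ligase gene with 12 deposited regions of which 8 are assigned to Nedd4l itself. All 7 rose in HFD-RD by 1.15 to 1.69, and the region at chr18:65207062-65208312 had 1196 and 1136 in HFD-RD, 1172, 1033 and 1268 in HFD and 416 and 492 in RD-RD. The call at -18120 bp ended without HFD-RD replicate 1 (0.77, limma adjusted p = 0.0566).

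Of the other genes with at least 3 regions, all 4 regions over Tmcc3 are assigned to Mir7211 and rose in HFD-RD by 0.84 to 1.49 and in HFD by 1.08 to 1.61 on the log2 scale. Mir484, whose 4 regions lie over Marf1 and Bmerb1, had increases of 0.70 to 1.67 in HFD-RD. The smallest of these, at -71445 bp, had 129 and 129.6 in HFD-RD, 64.1, 78.2 and 49.0 in HFD and 69.8 and 90.7 in RD-RD, and its call ended without HFD-RD replicate 1 (0.70, limma adjusted p = 0.056), HFD-RD replicate 2 (0.70) or RD-RD replicate 1 (0.51). The smallest Mir7211 increase in HFD-RD (0.84) lost its call without HFD-RD replicate 1 (0.66) and without RD-RD replicate 1 (0.53). At Mir7237, which lies in Banp, 3 of 4 regions rose, with the largest change at 122329 bp (1.87), and the region at 84547 bp, over Zfp469, fell (-1.55), with 43.8 and 38.0 in HFD-RD, 62.3, 57.6 and 51.6 in HFD and 119.6 and 124 in RD-RD. Changes at the other 2 were 0.69 and 0.93 without RD-RD replicate 1, in place of 1.08 and 1.48. At Mir6419, in Nebl, the 2 regions nearly 500 kb upstream fell (-1.45 and -1.60) and the region at -154286 bp, inside Nebl, rose (1.06).

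Close to the microRNA gene, 5 regions overlap it and 53 more lie within 10 kb. Such a region may still belong to a host gene. Of the 5, those at Mir29b-2, Mir6932, Mir6977 and Mir7058 were higher in HFD-RD and that at Mir3095 was lower. The region around the Mir6977 hairpin, over the phosphatase gene Ptprs, had 388 and 315 in HFD-RD, 345, 276 and 555 in HFD and 123 and 112 in RD-RD, a log2 change of 1.56 ± 0.30 (SE; limma adjusted p = 0.000567). HFD-RD and HFD overlapped there, and RD-RD was about 3-fold lower. The region around Mir3095, over Lpar1, a lysophosphatidic acid receptor gene, had 98.5 and 69.4 in HFD-RD, 109.7, 116 and 102 in HFD and 154 and 181 in RD-RD, with HFD-RD below HFD and HFD below RD-RD, and a log2 change of -1.01 ± 0.22 (adjusted p = 0.00126). Around Mir6932, in Helz, the change of 0.80 in HFD-RD ended its call without HFD-RD replicate 2 (0.42, adjusted p = 0.174), and at the start of Mir7058, in Lat, it was 1.03 ± 0.22 (adjusted p = 0.000909).

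The nearest regions outside the gene were also mixed in direction. At Mir1905 (-56 bp), in Mex3a, the region had 89.4 and 44.4 in HFD-RD, 104, 88.0 and 81.7 in HFD and 161 and 147 in RD-RD and fell by 1.27 on the log2 scale, a change that was -0.77 without HFD-RD replicate 2. At Mir6412 (109 bp) the change was 1.25, and 0.73 without RD-RD replicate 1. The regions at Mir148b (828 bp, 1.24), Mir7062 (-998 bp, 1.07), Mir1946b (1147 bp, 0.94), Mir686 (1155 bp, 1.40) and Mir6390 (1723 bp, 1.23) rose in HFD-RD. The Mir148b change was 0.71 without RD-RD replicate 1.

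The share of higher calls in HFD-RD against RD-RD was 80.0% of the 5 overlapping regions, 73.6% of the 53 within 10 kb, 66.2% of the 130 over 10 to 100 kb and 54.3% of the 46 farther away. Lower calls made up 20.0%, 22.6%, 31.5% and 45.7%. Over all regions, at any distance from their gene, 64.8% were higher and 32.4% lower. These shares are a description, without a test, and neighbouring regions of 1 gene fall in the same class. By place, 68.6% of the 137 regions over protein-coding genes were higher and 29.2% lower, and 61.9% of the 97 regions outside them were higher and 36.1% lower. On chromosome 18, 10 of 21 regions were higher and 10 lower, with 7 of the higher ones assigned to Mir122.

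**Figure D3:**
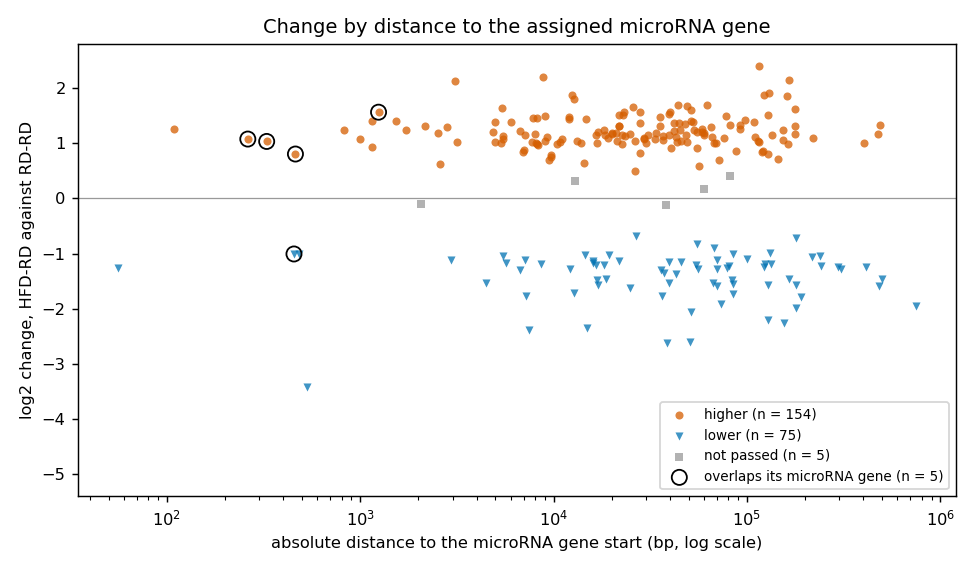
Log2 change in HFD-RD against RD-RD (vertical axis) by absolute distance to the assigned microRNA gene start (bp, log scale) for the 234 regions, with higher, lower and not passed calls marked and the 5 regions that overlap their microRNA gene circled. Higher and lower regions occur at all distances, and the lowest point is the Mir6414 region, whose lower coordinate lies 531 bp from the gene start.

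HFD was compared with RD-RD to ask what differs during the high-fat diet. The loci named above moved in the same direction as after weight loss at most regions, and both comparisons use the same RD-RD libraries, so they are given side by side and their likeness is not counted as evidence. Of the 234 regions 138 were higher in HFD (59.0%) and 66 lower (28.2%), and 30 did not pass, against 59.2% higher and 29.0% lower over all regions. The median log2 change was 0.74 near microRNA genes and 0.75 over all regions, in a range of -1.81 to 1.89. Without each library in turn, 108 of the 138 and 47 of the 66 kept their call.

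The largest increases in HFD were at Mir122 (1.89, -62030 bp), Mir23b, Mir3966 (1.87, -176446 bp), Mir6390 (1.80, 1723 bp) and Mir6395 (1.79, -218478 bp). At the Mir6390 region, chr14:105622047-105622879, normalized counts were 208 and 208 in HFD-RD, 307, 272 and 357 in HFD and 89.7 and 86.4 in RD-RD, with HFD above HFD-RD and both above RD-RD without overlap. The Mir3966 region had 76.6 and 105 in HFD-RD, 134, 115 and 147 in HFD and 19.9 and 61.9 in RD-RD, with RD-RD libraries that differed about 3-fold from each other, and its change was 1.07 without RD-RD replicate 1. In HFD-RD, where the Mir3966 change was 1.32, the call ended without RD-RD replicate 1 (0.52, limma adjusted p = 0.0867) and without HFD-RD replicate 2 (1.10). The largest decreases in HFD were at Mir6414, Mir684-1 (-1.75), Mir5099 (-1.72), Mir187 (-1.68, -7153 bp) and Mir5127 (-1.64, -178189 bp). At Mir187 normalized counts were 160.5 and 154 in HFD-RD, 200.1, 174 and 135 in HFD and 534 and 546 in RD-RD, where HFD-RD and HFD overlapped far below RD-RD.

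Of the 35 regions of listed microRNAs, 24 were higher and 9 lower in HFD than in RD-RD (59.2% and 29.0% over all regions), with a median log2 change of 0.90, against 0.75 over all regions. The 2 that did not pass were those of Mir155hg (0.59 ± 0.31 SE, limma adjusted p = 0.0938) and Mirlet7i (-0.45 ± 0.21, adjusted p = 0.0627). Mir30d rose by 1.55 ± 0.24 (adjusted p = 0.000298), with 241 and 211 in HFD-RD, 259, 265 and 353 in HFD and 123 and 77.8 in RD-RD, and Mirlet7c-1 by 1.08 ± 0.29 (adjusted p = 0.0049).

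HFD-RD was compared with HFD to ask what weight loss changes relative to the high-fat diet. Few regions near microRNA genes passed: 22 were higher in HFD-RD (9.4%) and 31 lower (13.2%), against 10.2% and 12.8% over all regions, and 181 did not pass. The median log2 change was -0.02, against -0.05 over all regions, in a range of -1.61 to 1.29. Of the called regions 41.5% were higher, and with the totals of the libraries made equal 17.3% were (14 higher and 67 lower), so the balance of directions depends on the scaling. Fewest calls were made without HFD-RD replicate 1, with 2 regions higher and 10 lower. Without HFD replicate 1 they were 10 and 17, without HFD replicate 2 the higher ones were 14, and without HFD replicate 3 they were 14 and 20. Calls kept without each library in turn numbered 2 of the 22 and 7 of the 31.

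Among the regions named by rule, 6 kept their call in HFD-RD against HFD without each library, those at Mir21c, Mir582, Mir1927, Mir133c, Mir30a and Mir6414. Of these, the Mir21c region was higher in HFD-RD and the other 5 were lower. At Mir582, in the phosphodiesterase gene Pde4d, the region at chr13:109299783-109300272 (-24961 bp) had 23.7 and 24.1 in HFD-RD, 67.3, 71.6 and 52.4 in HFD and 76.0 and 74.9 in RD-RD. HFD and RD-RD libraries were separate by a small margin and HFD-RD was lowest by a wide one. The log2 change was -1.37 ± 0.19 (SE; limma adjusted p = 0.004) against HFD and -1.62 ± 0.21 (adjusted p = 0.000122) against RD-RD, while HFD against RD-RD did not pass (-0.25, adjusted p = 0.231). At Mir1927, in Rabgap1l, the region at -178594 bp had 23.7 and 21.3 in HFD-RD, 48.8, 54.3 and 65.3 in HFD and 89.7 and 95.0 in RD-RD, with a log2 change of -1.27 ± 0.19 (adjusted p = 0.00469) against HFD. At Mir133c the region -50938 bp away, with the values given above, had a log2 change of -1.29 ± 0.20 against HFD (adjusted p = 0.00554).

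At the other regions with the largest changes in this comparison, calls ended without HFD-RD replicate 1, which leaves 1 library in that group, while the changes kept their direction. Mir1907 lies in Trps1, and its region at 487885 bp, outside Trps1, had 186 and 109 in HFD-RD, 53.7, 76.5 and 46.4 in HFD and 54.8 and 57.6 in RD-RD, with HFD-RD above the overlapping HFD and RD-RD libraries. Its log2 change against HFD of 1.29 ± 0.27 (SE; limma adjusted p = 0.0102) was 0.91 (adjusted p = 0.0993) without HFD-RD replicate 1, and the calls of the other 2 Mir1907 regions ended as well (0.47 and 0.46), as they did without HFD replicate 1 (0.93 and 1.00) and HFD replicate 3 (0.81 and 0.89). Mir7001, in the tetraspanin gene Cd82, had 148 and 99.1 in HFD-RD, 57.8, 63.4 and 54.2 in HFD and 27.4 and 41.8 in RD-RD at -12681 bp. The change of 1.04 against HFD was 0.75 (limma adjusted p = 0.129) without HFD-RD replicate 1, that of 1.09 at Mir7675 (24727 bp) was 0.96 (adjusted p = 0.142), and that of -1.44 at Mir6355 (-128232 bp) was -1.34 (adjusted p = 0.0623). The Mir7675 call also ended without HFD replicate 1 (0.97) and HFD replicate 3 (0.98). Of the listed microRNAs 1 region was higher, at Mir26a-1 (1.03), and 3 were lower, 2 at Mir30a (-1.14 and -0.66) and 1 at Mirlet7i (-0.65). Without HFD-RD replicate 1 the calls at Mir26a-1 (0.73, adjusted p = 0.117), at the Mir30a region at -12732 bp (-0.39) and at Mirlet7i (-0.43) ended. The calls at that Mir30a region and at Mirlet7i also ended without HFD replicate 1 (-0.65 and -0.54), 2 (-0.70 and -0.75) or 3 (-0.63 and -0.65).

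**Figure D4:**
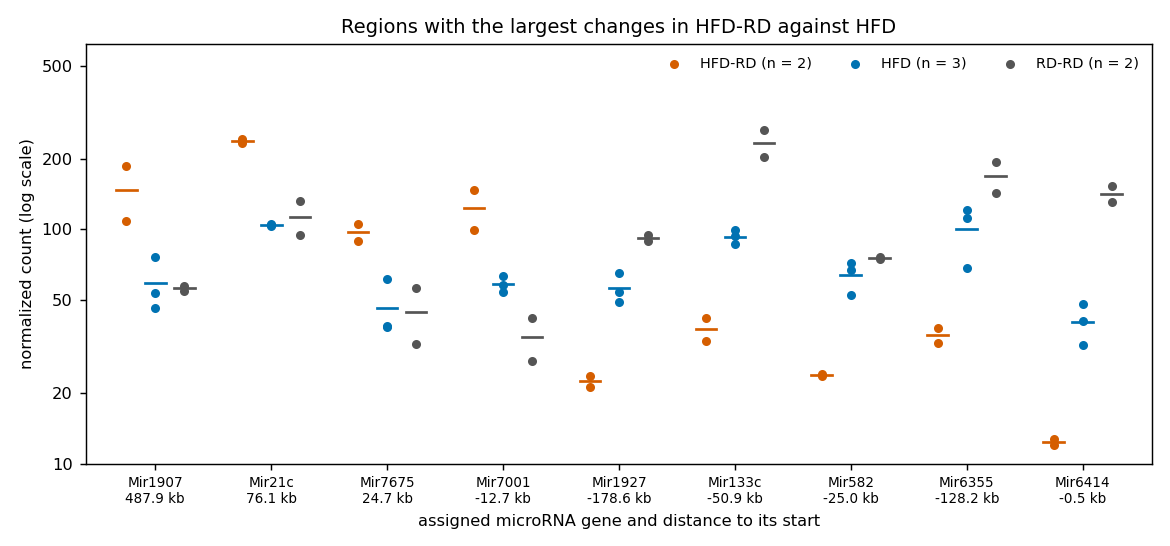
Normalized counts (log scale) at 9 regions with the largest called changes in HFD-RD against HFD, labelled with the microRNA gene and the distance in kb, for HFD-RD (n = 2), HFD (n = 3) and RD-RD (n = 2), with lines at group means. A region of Mir101c, also among the 5 largest increases, is not drawn. HFD-RD libraries stand above all HFD libraries at the 4 regions on the left and below them at the 5 on the right.

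The 3 comparisons were also read together. Shares of the joint patterns over all 5898 regions were not computed, so the counts describe the 234 regions and are no result about microRNA genes. Higher in HFD-RD and in HFD than in RD-RD, without passing between HFD-RD and HFD, were 127 regions, and 42 were lower in the same way. In 19 regions HFD-RD was lower than RD-RD and than HFD, and HFD lower than RD-RD, among them those of Mir133c, Mir1927, Mir30a and Mir6414 named above. At others of the 19 the call against HFD ended without HFD-RD replicate 1 and also without HFD replicate 1. Among these were regions of Mir204, Mir5099, Mir6419 and Mir684-1 and another of Mir30a. All of those named but that of Mir6419 also lost the call without HFD replicate 3. The opposite order, with HFD-RD highest and RD-RD lowest and all 3 comparisons called, was found in 8 regions, among them Mir26a-1, Mir686 and Mir7001, which lost the call against HFD without HFD-RD replicate 1 (0.73, 0.85 and 0.75). In 9 regions HFD-RD was higher than both other groups while HFD against RD-RD did not pass, as at Mir21c and Mir1907, and in 9 it was lower than both, as at Mir582 and Mirlet7i. The Mir1907 region with the smallest change against RD-RD (0.91) lost that call without HFD-RD replicate 1 (0.38) or RD-RD replicate 1 (0.86). HFD set itself apart from both other groups, lower than RD-RD and lower than HFD-RD, in 4 regions where HFD-RD against RD-RD did not pass: both of Mir101c and 1 each of Mir7048 and Mir7661. At Mir7661 the call in HFD-RD against HFD (0.99) ended without HFD-RD replicate 1 (0.61), HFD replicate 1 (0.97) or HFD replicate 3 (0.85). Its call in HFD against RD-RD (-0.82) ended without RD-RD replicate 2 (-0.53, limma adjusted p = 0.146) or HFD replicate 3 (-0.68, adjusted p = 0.0544).

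The region with the highest mean normalized count of all 5898 is assigned to Mir101c. Counts were not divided by width, and whether its reads map to a single place in the genome was not tested. The region at chr9:3000575-3036062, named after its values were seen, is 35488 bp wide and lies at the proximal end of chromosome 9. Normalized counts were 231427 and 136221 in HFD-RD, 69562, 90917 and 74213 in HFD and 193509 and 192063 in RD-RD. HFD was lowest in all 3 libraries, and the HFD-RD libraries spanned both RD-RD libraries. The region took 14.27% and 9.948% of the reads in the deposited regions in HFD-RD, 5.486%, 7.255% and 5.510% in HFD, and 15.02% and 14.56% in RD-RD. Its log2 change was 1.19 ± 0.24 (SE; limma adjusted p = 0.00942) in HFD-RD against HFD and -1.31 ± 0.24 (adjusted p = 0.00063) in HFD against RD-RD. The neighbouring region at chr9:3036685-3038288, 2058 bp from the gene, had 6482 and 3925 in HFD-RD, 1916, 2519 and 1942 in HFD and 5545 and 5352 in RD-RD, and its call against HFD ended without HFD-RD replicate 1 (0.90, adjusted p = 0.0722). The part of this region in the scaling of the libraries is given with the alternatives.

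Genes of the machinery that makes and uses microRNAs were mostly without an assigned region: 5 regions are assigned to 4 of 32 listed genes. All 5 were higher in HFD-RD and in HFD than in RD-RD and 0 were lower by limma, at an unadjusted p under 0.05 as well. Over all regions 64.8% were higher in HFD-RD and 59.2% in HFD, so 5 of 5 regions are no result about these genes as a group. Tnrc6a, which encodes the GW182 protein that ties Argonaute to mRNA decay, had a region at chr7:123120465-123121224 with normalized counts of 202 and 205 in HFD-RD, 169, 168 and 198 in HFD, and 69.8 and 56.2 in RD-RD. Its log2 change was 1.69 ± 0.21 (SE; limma adjusted p = 9.85e-05) in HFD-RD and 1.49 ± 0.19 (adjusted p = 0.000168) in HFD. Regions near Tnrc6a (a second one), Tnrc6c, Ago4, an Argonaute gene, and Srsf3, a splicing factor known in human cells to aid hairpin cutting, changed by 1.19, 1.03, 1.33 and 0.73 in HFD-RD and by 1.15, 0.96, 0.74 and 1.14 in HFD. Between HFD-RD and HFD limma called 0 of the 5, with 1 higher and 0 lower at an unadjusted p under 0.05.

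Of 37 marker genes of other cell types that a sort could let through, 9 had regions assigned to them, 14 regions in all. Of these, 5 were higher and 9 lower in HFD-RD than in RD-RD, 5 higher and 8 lower in HFD than in RD-RD, and 0 higher and 3 lower in HFD-RD than in HFD (1 higher and 4 lower at an unadjusted p under 0.05, limma). Over all regions the higher and lower shares were 64.8% and 32.4% in HFD-RD and 59.2% and 29.0% in HFD, both against RD-RD, and 10.2% and 12.8% in HFD-RD against HFD. The regions that were higher in HFD-RD and in HFD than in RD-RD were those of the T cell gene Cd4, the B cell gene Ms4a1, the endothelial gene Pecam1 and 2 of 4 at Kdr. The 9 lower in HFD-RD than in RD-RD were at Ebf1 (3, of which 1 did not pass in HFD), Csf3r, Siglech, Cd209a, Cdh5 and the other 2 at Kdr. Regions of Ebf1, Siglech, Cd209a, Cd4 and Ms4a1 lay at most 7209 bp from the gene start. Those of Csf3r, Pecam1 and Cdh5 lay at -23044, 46033 and -161342 bp. At Kdr the higher regions lay at -11761 and 152203 bp and the lower ones at 101385 and 105899 bp. Regions this far away may belong to another gene. At Cd4 normalized counts were 496 and 527 in HFD-RD, 487, 416 and 419 in HFD, and 232 and 265 in RD-RD. Summed over the 14 regions, normalized counts were 2099 and 2027 in HFD-RD, 2281, 2244 and 2300 in HFD, and 3112 and 2857 in RD-RD. The sum was highest in RD-RD, while single markers went in both directions. The listed genes of NK cells, mast cells and eosinophils, adipocytes and fibroblasts had no deposited region assigned to them. The part of such cells in the changes near microRNA genes was not tested.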

How the data were processed

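ATAC-seq libraries of adipose tissue macrophages (HFD-RD n = 2, HFD n = 3, RD-RD n = 2) were analysed from 7 deposited tables of regions. The signal in them is the authors' normalized count per region (reads divided by a size factor per library), and the column of means is the authors' as well. The tables also hold the authors' deposited log2 fold changes and p-values, adjusted by the authors, for a comparison that the headers do not name, and the authors' distance to the assigned gene. These fold changes and p-values were read only to learn which comparison a table holds. GRCm38, MACS2 2.0.10, Picard, deepTools and DESeq2 are named in the submitters' processing notes; the role of each, and the aligner, were not given in the sources used here.

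Multiplying by a size factor per library, worked out from the steps between deposited values, gave whole reads within 1e-06 for 100.0% of values, and 889422 to 2807495 reads per library in the deposited regions. No count test was run. limma 3.58.1 (R 4.3.3) was fitted to log2(normalized count + 1) of all 5898 regions in 1 model with 3 groups (residual df 4, prior df 7.2), with Benjamini–Hochberg adjustment and a threshold of 0.05. The filter on low values, a mean of at least 10 normalized counts, left out 0 regions. The script was tested on simulated data. Groups came from titles and diet labels. No per-sample column was left unused.

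Named regions were the 5 largest increases and decreases per comparison (1 per microRNA gene), those of listed microRNAs, the 15 nearest their microRNA gene, genes with 3 or more regions, members of the table of 62 regions and the 3 largest changes at microRNA processing genes. Members and lists were chosen with earlier results of these data known. Alternatives were other pseudocounts, filters, moderation, scalings, a replicate block and leaving out each library. Gene bodies and sequences came from RefSeq (GRCm38.p6), which matched all 145 microRNA genes. 2 regions on X were left out.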

Additional observations from a re-analysis of the deposited data

How the results depend on the processing

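Calls against RD-RD kept their counts within 1.5 times under every alternative run, except with an absolute log2 change of at least 1, where HFD had 89 higher and 27 lower regions and 3 microRNA processing regions were higher. Leaving out a library gave for HFD-RD against RD-RD 139 to 154 higher and 71 to 75 lower regions, and 119 to 140 higher and 54 to 69 lower in HFD against RD-RD. The median log2 change in HFD-RD against RD-RD was 0.79 with equal totals and the largest region, that of Mir101c, set aside, an alternative chosen after seeing the data.

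HFD-RD against HFD depended most on the processing. Leaving out a library gave 2 to 28 higher and 10 to 35 lower. Equal totals gave 14 higher and 67 lower regions and 1 lower microRNA processing region, equal totals with the largest region set aside 17 and 49, and an absolute log2 change of at least 1 left 10 and 11. Equal totals moved the median of all regions by -0.19 in HFD-RD against RD-RD and -0.21 in HFD-RD against HFD, and setting the largest region aside moved it by -0.23, -0.12 (HFD against RD-RD) and -0.11. Same-numbered libraries showed little shared deviation from their group means (correlations of -0.0716 to 0.0628). In a group of 2 libraries the deviations mirror each other, and the regions are selected. These values therefore do not settle whether the numbers pair libraries. With the replicate block, in which HFD replicate 3 has a number of its own, HFD-RD against HFD had 6 higher and 17 lower, HFD-RD against RD-RD 153 and 75, and HFD against RD-RD 126 and 56. The median log2 change in HFD-RD against HFD, -0.02 as reported, changed sign to 0.04 with the replicate block and without HFD replicate 3, and to 0.06 without HFD-RD replicate 2. The cause of these differences was not tested. Count tests (edgeR, DESeq2) were not run. Depth limits the weakest regions most, since the median region held 71 reads in HFD-RD replicate 1.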
